A study of Mus musculus with 6 samples.

Results

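Granule-rich immature neutrophils that were not dividing were studied in the repaired mouse enthesis, the tendon-to-bone attachment, at 7 days post injury (dpi). A barcode was counted as such a cell when it held at least 1000 unique molecular identifiers (UMIs, each standing for 1 captured RNA molecule) and 200 genes, and at most 10% mitochondrial UMIs. In addition, Ngp, Camp and Ltf together had to make up at least 1% of its UMIs, Mki67 and Top2a had to be at 0, and Elane, Mpo and Prtn3 together could not exceed 2 UMIs. Barcodes with 0.5% or more collagen UMIs (Col1a1, Col1a2 and Col3a1) or more than 1 C1q UMI were left out. These limits gave 7754 cells of 85339 barcodes kept in the whole series (9.09%). Since measured RNA chose the cells, the levels of the genes named above are given as a description and were not tested.

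There were 6 libraries of single cells, with 3 made from wild-type entheses and the other 3 from Nlrp3-/- entheses; each held 97042713 to 134901999 UMIs. The wild-type mice were C57BL/6 animals from a commercial supplier, and the Nlrp3-/- mice carried a knockout in all cells and came from a different company. All mice were 12 to 14 weeks old and had undergone rotator cuff tear and repair, in which the supraspinatus tendon is cut and sutured back to bone; uninjured tissue was not analysed here. Entheses were pooled at harvest and n is 3 for each genotype, but whether that counts mice or pools of mice is not given in the sources used here. The p-values therefore measure the spread between libraries, which may be technical. The repair passed the suture through bone tunnels, and whether marrow was in the harvested tissue is not given in the sources used here. Cells of the marrow and cells that had entered the repair site therefore cannot be told apart.

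Neutrophils are made in the bone marrow, where their granules fill in a set order. Primary granules with Mpo, elastase and proteinase 3 are loaded in early, dividing precursors. Secondary granules with lactoferrin (Ltf), cathelicidin (Camp), Ngp and lipocalin 2 (Lcn2) are loaded in myelocytes and metamyelocytes under the transcription factor C/EBPε (Cebpe), and tertiary granules with gelatinase (Mmp9) later still. Mature cells carry the chemokine receptor Cxcr2 and, once in inflamed tissue, make cytokines such as Il1b. Nlrp3 is the sensor of the inflammasome that activates caspase-1 and matures IL-1β.

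The promoters of the granule genes that define or mark these cells are shown because C/EBP factors are known to bind such promoters. Capitals mark each match to TTGCNNAA, one form of the C/EBP motif, searched on both strands. Ngp lies at chr9:110419558-110419857 (plus strand), Ltf at chr9:111019042-111019341 (plus strand), Lcn2 at chr2:32387690-32387989 (minus strand) and Chil3 at chr3:106167515-106167814 (minus strand), each window running from 250 bases before to 50 bases after the RefSeq start on GRCm38.p6.
Ngp: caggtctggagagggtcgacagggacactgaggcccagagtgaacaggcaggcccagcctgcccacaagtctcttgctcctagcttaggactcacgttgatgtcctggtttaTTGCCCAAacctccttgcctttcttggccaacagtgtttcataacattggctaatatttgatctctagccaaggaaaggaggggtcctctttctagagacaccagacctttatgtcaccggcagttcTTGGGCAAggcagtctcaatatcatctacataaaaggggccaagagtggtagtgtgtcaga
Ltf: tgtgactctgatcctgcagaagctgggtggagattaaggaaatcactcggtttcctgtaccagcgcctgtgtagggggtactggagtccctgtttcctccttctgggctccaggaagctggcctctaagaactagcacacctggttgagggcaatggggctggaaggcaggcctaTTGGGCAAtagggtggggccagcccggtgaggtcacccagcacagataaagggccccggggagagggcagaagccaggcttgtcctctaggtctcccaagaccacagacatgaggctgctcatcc
Lcn2: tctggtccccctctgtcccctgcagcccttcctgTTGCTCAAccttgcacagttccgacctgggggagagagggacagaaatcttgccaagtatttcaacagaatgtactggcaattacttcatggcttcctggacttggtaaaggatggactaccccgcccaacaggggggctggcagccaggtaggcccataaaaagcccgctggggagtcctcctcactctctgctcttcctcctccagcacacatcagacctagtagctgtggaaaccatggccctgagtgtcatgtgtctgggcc
Chil3: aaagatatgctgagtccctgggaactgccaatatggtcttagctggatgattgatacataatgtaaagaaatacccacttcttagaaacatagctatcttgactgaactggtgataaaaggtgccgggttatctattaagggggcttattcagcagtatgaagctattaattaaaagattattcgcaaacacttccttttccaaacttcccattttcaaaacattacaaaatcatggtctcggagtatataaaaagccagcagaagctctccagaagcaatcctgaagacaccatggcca
The Ngp window held 2 matches, the Ltf, Lcn2 and Mmp8 windows 1 each, and the Camp, Cd177 and Chil3 windows 0, where 10.8% of the 32851 promoters in the table held at least 1. A match is a run of letters and not a measured binding site.

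The label was first checked against genes that the limits did not use. The cells were neutrophils by their most abundant RNAs: S100a9 and S100a8, the 2 chains of the calprotectin complex, made up 14.8% and 11.9% of their UMIs. Camp (4.88%) and Ngp (3.19%) were used by the limits, but Lcn2, which was not, followed at 1.68%, and 20 genes together accounted for 48.8% of all UMIs. Lcn2 was at 15370.4, 15478 and 13079.8 CPM (UMIs per 1000000 of the summed UMIs of these cells in a library) in the wild-type libraries and at 17642, 18064 and 21078 CPM in the Nlrp3-/- libraries. Mmp8, the neutrophil collagenase, was at 1465, 1069 and 2022 CPM and at 1241, 1895 and 1473 CPM. Both marker genes were therefore present in every library.

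After each cell was thinned to 1000 UMIs, Mmp8 was seen in 46.2% to 72.2% of the cells, depending on the library, and Ly6g, the surface antigen used to sort mouse neutrophils, in 50.3% to 56.4%. Without thinning the shares were 56.3% to 83.7% and 72.8% to 89.3%. In 2925 collagen-rich cells, which should lack both genes, the thinned shares were 0.4% to 3.4% and 0.2% to 1.2%, at median depths of 2304.5 to 17045.5 UMIs against 2954 to 4172 UMIs in the granule-rich cells. Both genes were thus detected well above the level that free RNA gave in other cells. Csf3r, another neutrophil marker, was seen in fewer of the granule-rich cells, 8.95% to 20.3% thinned and 23.9% to 46.7% without thinning. Its thinned share in the collagen-rich cells was 0% to 3.4%.

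Division genes other than the 2 that the limits used were low but not at 0. A list of 20 such genes took 3.25 to 4.73 UMIs per 1000 in these cells, against 13.9 to 19.7 in dividing granule-rich cells and 1.67 to 2.51 in granule-low neutrophils. Macrophage genes (7 of 7 detected) made up 0.0154% to 0.0398% of UMIs and collagen and other mesenchymal genes (5 of 5) 0.0394% to 0.125%, where all kept barcodes had 0.227% to 0.507% and 1.41% to 3.92%. These lists include the C1q and collagen genes that the limits held down, so their low shares were partly set in advance and do not test the label. Erythroid genes took at most 0.033%, B cell genes at most 0.0328%, T and NK cell genes at most 0.0031% and eosinophil genes at most 0.000539%. Monocyte genes took 0.0653% to 0.0934%, against 0.0458% to 0.0779% in all kept barcodes, and were above the share of all kept barcodes in 6 of 6 libraries. Ly6c2, one of these genes, which neutrophil precursors also express, was at 599 to 909 CPM.

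Nlrp3-/- replicate 1 stood apart from the other libraries. Of its 749 cells, 146 (19.5%) had less than 10% S100a8 and S100a9 UMIs, compared with 0.908% to 1.91% of the cells in the other 5 libraries. Those 146 cells carried RNA of other tissue cells: the endothelial and fat-associated gene Fabp4 was at 5508 CPM in them and at 86.5 CPM in the rest of that library, and Ctsk, an osteoclast protease, at 903 and 14.3 CPM. The fewer such cells of the other 5 libraries had Ctsk at 2114 to 5481 CPM and Fabp4 at 0 to 6356 CPM. It was thus their number, and not their foreign RNA, that set this library apart. A doublet score, cut at a set number of barcodes (3889 of 22048 in that library), marked 19.9% of them and 8.46% of the rest. The automatic cut of the caller marked 33 barcodes in that library. In the other 5 libraries the set number marked 50% to 81.25% of the cells under 10%. Results that rest on this library are given below with and without it, or with all cells under 10% removed, an alternative chosen after seeing the data.

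Near the limit of 1% there were 206 barcodes at 0.8% to 1.0% granule UMIs that met every other limit, and 208 cells at 1.0% to 1.2%. A further 523 barcodes had enough granule RNA but held 1 Mki67 or Top2a UMI, 122 exceeded the limit on primary granule genes, and 1899 failed the collagen or C1q limit, 1507 of them in Nlrp3-/- replicate 1. In free RNA (barcodes with at most 100 UMIs), Ngp, Camp and Ltf took 1.77%, 0.694% and 1.27% of UMIs in the wild-type libraries. In the Nlrp3-/- libraries they took 0.579%, 1.16% and 1.12%. The limit of 1% thus lay below free RNA in wild-type replicates 1 and 3 and Nlrp3-/- replicates 2 and 3. Library medians of that share in the granule-rich cells were 6.92% to 9.75%. Among kept barcodes, 762 pairs shared a barcode sequence between libraries, and 128 of the granule-rich cells were involved.

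Granule-rich cells were the largest neutrophil set in each library except wild-type replicate 2. They numbered 1872, 1124 and 1209 in the wild-type libraries and 749, 1494 and 1306 in the Nlrp3-/- libraries. As a share of all kept barcodes they made up 14.8%, 7.24% and 12.2% in wild-type controls and 3.40%, 12.6% and 9.74% in Nlrp3-/- mice. The groups overlapped (11.4% ± 3.85 against 8.59% ± 4.72, mean ± SD, n = 3 each; exact permutation test, two-sided p = 0.6). Without Nlrp3-/- replicate 1 the difference shrank from -2.83 to -0.237 percentage points. That library kept 22048 barcodes at a median of 2069 UMIs. The others kept 9903 to 15515 barcodes at medians of 4874 to 7421 UMIs. The part of these shallow barcodes in its low share was not tested.

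Within the neutrophil lineage (dividing granule-rich cells, the cells described here, and neutrophils of intermediate and of low granule content), their share was higher in Nlrp3-/- mice. It was 49.4%, 39.1% and 50.1% in wild-type controls and 54.0%, 57.5% and 61.6% in Nlrp3-/- mice, so that the groups did not overlap (46.2% ± 6.16 against 57.7% ± 3.81, n = 3 each). The two-sided exact permutation p was 0.1, the smallest that 3 against 3 libraries allow. The groups overlapped when barcodes needed 2000 UMIs (61.3% against 66.1%, exact p = 0.3) or when cells with under 10% calprotectin UMIs were removed (45.9% against 55.6%, exact p = 0.3). Granule-low neutrophils are shallow (library medians of 1350 to 1564 UMIs), and that was the set whose share differed most between libraries, from 10.0% in Nlrp3-/- replicate 2 to 43.3% in wild-type replicate 2. Dividing granule-rich cells made up 15.7%, 11.9% and 17.5% of the lineage in wild-type controls and 13.5%, 28.2% and 24.0% in Nlrp3-/- mice, and overlapped (exact p = 0.3).

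**Figure D1:**
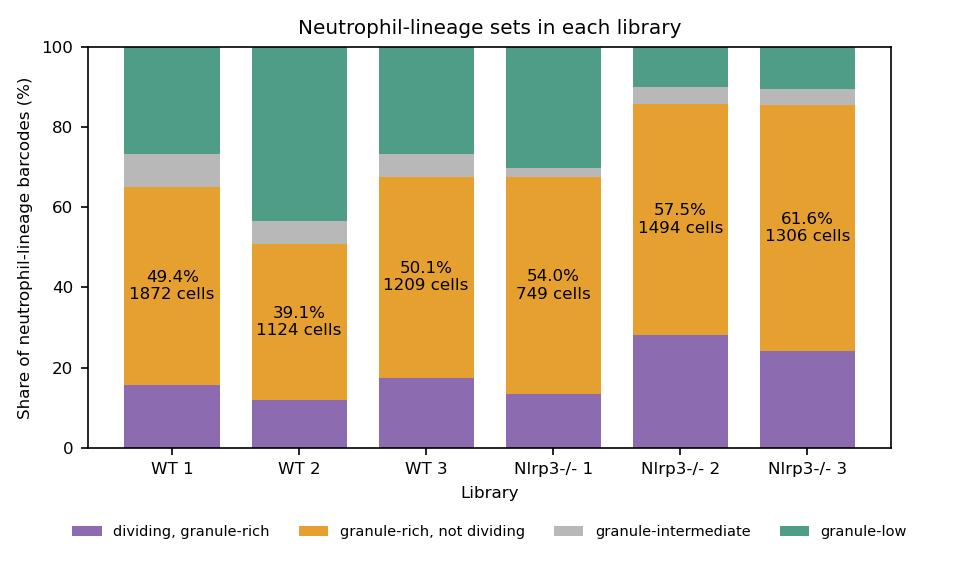
Stacked bars give the share of neutrophil-lineage barcodes (%, y axis) that fell into each of 4 sets in the 6 libraries (x axis); the printed values are the share and number of granule-rich cells that were not dividing. Those cells make up 39.1% to 50.1% of the lineage in the wild-type libraries and 54.0% to 61.6% in the Nlrp3-/- libraries.

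The cells were not uniform: levels of many genes ran along their own granule content. The cells were split at 2%, 5% and 10% Ngp, Camp and Ltf UMIs, and the mean CPM over the 6 libraries was compared between the lowest and the highest bin. Cebpe, the factor that drives secondary granule genes, was at 91.1 CPM in the lowest bin and 475 CPM in the highest, and was higher there in 6 of 6 libraries. Chil3, which encodes the secreted chitinase-like protein Ym1, went from 151 to 2881 CPM and Serpinb1a, an inhibitor of neutrophil serine proteases, from 159.8 to 740.2 CPM, again in 6 of 6 libraries. Cybb, the catalytic subunit of the NADPH oxidase, went from 729.8 to 2279 CPM and Anxa1, an anti-inflammatory annexin, from 1568 to 4255 CPM. Ms4a3, a marker of granulocyte-monocyte precursors, was at 5.38 and 54.3 CPM.

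Genes of later stages ran the other way. Retnlg, a resistin-like secreted protein of neutrophils, was at 31513 CPM in the lowest granule bin and 3571 CPM in the highest, and was lower there in 6 of 6 libraries. Cxcr2 was at 354 and 94.8 CPM, Il1b at 1157 and 263 CPM and Clec4d, a C-type lectin of activated myeloid cells, at 477 and 70.4 CPM, each lower in 6 of 6 libraries. Mmp8 belongs to this second group by its values (2255 and 713 CPM, lower in 6 of 6), and Mmp9 was lower in 5 of 6 libraries (2811 and 1328 CPM). Mmp8 and Lcn2, both markers of these cells, thus ran in opposite directions within them, since Lcn2 went from 7467 to 21555 CPM. Median depth also differed between the bins, from 1812 to 2940 UMIs in the lowest to 3860 to 5122 UMIs in the highest. In Nlrp3-/- replicate 1 the lowest bin had a median calprotectin share of 4.94%. Because the bins were set on genes of the same cells, these values are a description and carry no test.

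**Figure D2:**
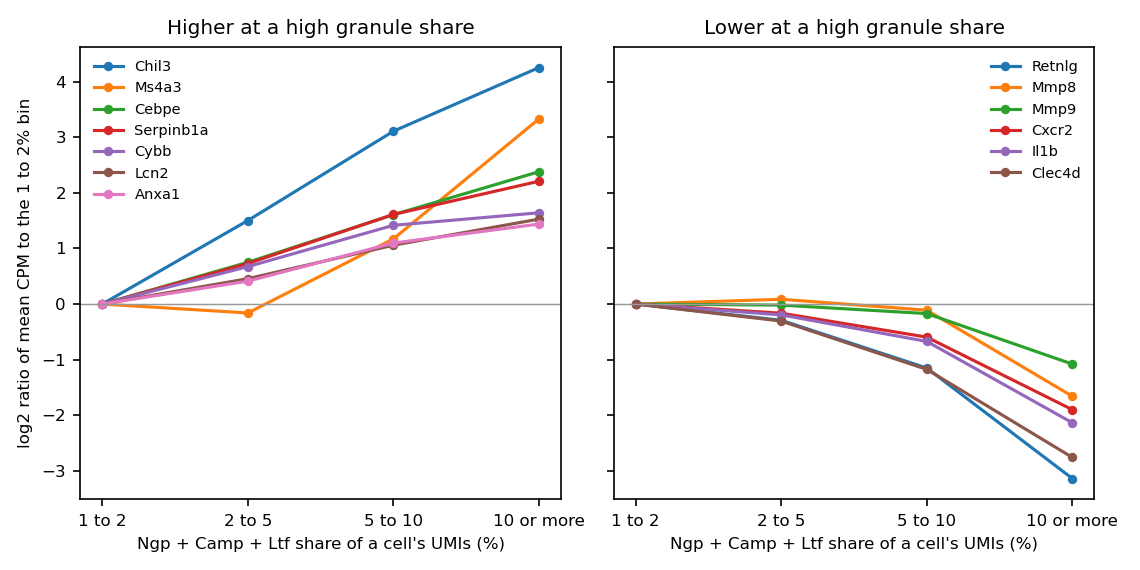
Each line gives, for 1 gene, the log2 ratio (y axis) of its mean CPM over 6 libraries to its level in cells with 1 to 2% granule UMIs, in 4 bins of the share of Ngp, Camp and Ltf UMIs per cell (x axis). Chil3 has the steepest line upwards (151 to 2881 CPM) and Retnlg the steepest downwards (31513 to 3571 CPM).

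The cells were next set beside granule-low neutrophils of the same libraries, 3801 barcodes with at least 2% calprotectin UMIs and 1 Csf3r UMI but less than 0.2% granule UMIs. The granule-rich cells were higher in secondary granule and oxidase genes, and lower in cytokine, chemokine, interferon-stimulated and immediate-early genes. Of 7698 genes tested, edgeR's quasi-likelihood test with the library as a block called 3516 at an adjusted p below 0.05 (45.7%), 1704 higher (22.1%) and 1812 lower (23.5%). Both sets were chosen on granule genes of the same cells. Granule-low neutrophils also had to hold calprotectin and Csf3r UMIs, which was not asked of the granule-rich cells. Without thinning, 23.9% to 46.7% of the granule-rich cells in a library held a Csf3r UMI. The counts therefore describe how far apart the sets lie and do not test the label. What the Csf3r requirement adds to the differences below was not tested.

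All 12 secondary granule genes that the limits did not use were called higher in the granule-rich cells (median log2 fold change 2.24; median of all genes 0.01). Lcn2 ranged from 13079.8 to 21078 CPM (median 16560.2) in them and from 1329.6 to 5869 CPM (median 3540.1) in granule-low neutrophils, a log2 fold change of 2.68 ± 0.32 (SE, 6 libraries). Cd177, a surface receptor stored in these granules, ranged from 617 to 1237 CPM and from 27.9 to 181 CPM (3.72 ± 0.22). Chil3 ranged from 676 to 2999 CPM and from 9.77 to 126 CPM (5.41 ± 0.22). Mmp8 differed less (1.33 ± 0.22): its range in the granule-rich cells, 1069 to 2022 CPM, overlapped with the 315 to 1498 CPM of granule-low neutrophils. Hp, haptoglobin, was called with a small difference (0.44 ± 0.14), and that call was lost in 5 of 12 alternatives: with cells thinned (adjusted p = 0.069), and without wild-type replicate 1 (0.059), 2 (0.081) or 3 (0.094) or Nlrp3-/- replicate 3 (0.059).

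Among transcription factors, Cebpe was the 1 of 17 called higher, with 263 to 393 CPM in the granule-rich cells and up to 40.7 CPM in granule-low neutrophils (3.98 ± 0.19), while 13 were lower. Those 13 included Junb (-1.31 ± 0.16) and Klf2 (-1.25 ± 0.20), which respond to activation and to quiescence signals. Of the 6 NADPH oxidase genes 5 were higher, led by Cybb (1138 to 2804 against 151 to 283 CPM, 3.14 ± 0.14). Tkt, an enzyme of the pentose phosphate pathway that supplies NADPH, was at 709 to 1049.9 and at 85.1 to 364 CPM (2.21 ± 0.17), and 8 of 16 genes of energy metabolism were called higher and 3 lower.

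Tertiary granule and secretory genes were split, with 4 of 11 higher and 5 lower. Mmp9 was 0.77 ± 0.19 higher and its ranges overlapped (1560.1 to 2548 and 564 to 2878 CPM), and Retnlg missed the threshold (0.11 ± 0.30), at 7799.8 to 17896 and 4620.0 to 22086 CPM. Mmp25, a membrane-anchored protease of late granules, was higher (1.72 ± 0.21) and Fpr1, the receptor for formylated bacterial peptides, lower (-0.90 ± 0.19).

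Of 18 mature effector genes 17 were lower in the granule-rich cells and none was higher (median -2.95). Il1b ranged from 226 to 1244 CPM (median 549) in them and from 6333 to 14375 CPM (median 9218) in granule-low neutrophils, a log2 fold change of -4.00 ± 0.35. Cxcl2, a neutrophil-attracting chemokine, ranged from 255 to 5071 CPM and from 11776 to 42565 CPM (-3.90 ± 0.38). Cxcr2 differed less, at 177 to 219 and 526 to 923 CPM (-1.60 ± 0.15). The ranges of all 3 genes were apart between the sets. Most trafficking genes followed: 7 of 10 were lower, including the marrow-retention receptor Cxcr4 (-1.51 ± 0.16). The 2 higher ones included S1pr4, with a log2 difference of 2.21 to 2.66 over the alternatives. Of 14 interferon-stimulated genes 12 were lower (median -2.08), Isg15 by -2.80 ± 0.20. Of 9 genes of the tissue dissociation response 8 were also lower, Dusp1 by -2.85 ± 0.23, and their part in the other differences was not tested.

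Free RNA bears on the low end of these values. In barcodes with at most 100 UMIs, taken to hold no cell, Il1b was at 473, 689 and 731 CPM in the wild-type libraries and at 857, 213 and 364 CPM in the Nlrp3-/- libraries. In the granule-rich cells it was at 520.3, 1244 and 692 CPM and at 578, 226 and 340.2 CPM, so that it was below its own free RNA in 3 of the 6 libraries. The thinned share of cells with an Il1b UMI was 10.8% to 36.8%, and unthinned 20.9% to 53.9%; in Nlrp3-/- replicate 1 it was 21.8%, where collagen-rich cells reached 21.2%. In that library the share is at the level of background. In granule-low neutrophils the thinned share was 89.9% to 96.9%.

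The genes that differed most upwards by the named-gene rule were low in granule-low neutrophils to the point of few counts. Orm1, an acute-phase glycoprotein, was at 76.9 to 195 CPM in the granule-rich cells and at 0 to 2.26 CPM in granule-low neutrophils. Fcnb, a ficolin of the lectin complement pathway, was at 70.4 to 142 and 1.07 to 11.4 CPM (5.31 ± 0.27), and Serpinb1a at 375 to 725 and 11.2 to 22.8 CPM (5.07 ± 0.16). Lbp, the lipopolysaccharide-binding protein, was at 50.4 to 93.3 and 2.09 to 5.71 CPM (4.68 ± 0.19). Each was higher in the granule-rich cells of every library. At the other end, Wfdc17, a secreted protein of activated myeloid cells, was lower by -4.21 ± 0.42 (26.9 to 203 and 929.9 to 4204 CPM), and Acod1, which makes itaconate, by -3.79 ± 0.36 (29.3 to 289.9 and 783 to 2091 CPM).

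Beside dividing granule-rich cells (2791 barcodes with at least 2 Mki67 or Top2a UMIs), the cells were lower in division genes and in most genes of a protein synthesis list, and higher in most tertiary granule genes. Of 9865 genes tested 7107 were called (72%), 3450 higher (35%) and 3657 lower (37.1%). The dividing cells were deeper, with library medians of 8111.5 to 13199 UMIs, and with every cell thinned to 1000 UMIs the calls came to 1748 higher and 1677 lower. The dividing cells were chosen for Mki67 and Top2a, and the non-dividing cells for their absence and for few primary granule UMIs, so the values below describe how far apart the sets lie and do not test the label. All 20 division genes that the limits did not use were lower (median log2 fold change -4.46). Birc5, a mitotic survivin, ranged from 4.28 to 27.7 CPM in the non-dividing cells and from 359 to 530.3 CPM in the dividing cells (-5.30 ± 0.21).

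Genes of the primary granule list that the limits did not use differed among themselves. Ctsg, cathepsin G, was at 2.91 to 17.4 and 298 to 466 CPM (-5.27 ± 0.25), and Ms4a3 at 13.9 to 43.1 and 353 to 605 CPM (-3.82 ± 0.16). Serpinb1a, of the same list, differed less, at 375 to 725 and 715 to 1145 CPM (-0.52 ± 0.06). Of the 7 tested genes of that list (Ctsg, Ms4a3, Ctsc, Serpinb1a, Srgn, Calr and Rgcc) 5 were lower and 2 higher. The list is wider than granule contents, since it holds a precursor marker (Ms4a3) and a protease inhibitor (Serpinb1a). Its counts therefore do not describe primary granules alone. Elane, which the limits held near 0, was at most at 22.9 CPM in the non-dividing cells and at 2001 to 3092 CPM in the dividing cells. Of 12 protein synthesis genes (ribosomal, nucleolar, translation factor and chaperone genes) 11 were lower, among them Npm1 (-1.22 ± 0.10), a nucleolar chaperone, and the ribosomal protein gene Rpl3 (-1.73 ± 0.13).

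Most secondary granule genes differed little between these sets, and tertiary ones differed more. Lcn2 (0.79 ± 0.07), Cd177 (0.90 ± 0.08), Lyz2 (0.83 ± 0.07) and Anxa1 (0.93 ± 0.06) were each within a log2 difference of 1, and 11 of the 12 tested were higher in the non-dividing cells. The exception, Chil3, was lower (-0.65 ± 0.07). Of 18 transcription factors 13 were higher and 2 lower (median 0.58), with Spi1, the myeloid factor PU.1, higher by 0.44 ± 0.06 and Klf2 by 1.40 ± 0.09. The 2 lower ones were Cebpe (-0.44 ± 0.06) and Gfi1, a repressor needed for neutrophil commitment, at 3.84 to 6.38 CPM against 10.4 to 28.2 CPM in the dividing cells (-1.54 ± 0.15). Mmp8 was the secondary granule gene that differed most, at 1069 to 2022 CPM in the non-dividing cells and 33.9 to 99.0 CPM in the dividing cells (4.94 ± 0.18). Of 11 tertiary granule and secretory genes 10 were higher (median 2.88), led by Retnlg (7799.8 to 17896 against 132 to 1048 CPM, 5.09 ± 0.21), Fpr1 (4.05 ± 0.16) and Mmp9 (3.93 ± 0.12).

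Mature effector genes were higher in 18 of 19 cases (median 2.11) and interferon-stimulated genes in 14 of 15 (median 1.73). Genes of the dissociation response were also higher in 6 of 9 cases (median 1.17) and macrophage genes in 4 of 4 (median 1.2), Apoe by 1.08 ± 0.10, and their part in these differences was not tested. Cxcr2 was at 177 to 219 CPM against 21.6 to 37.1 CPM (2.99 ± 0.13). For Cxcr2 the 3 sets did not overlap, and the non-dividing granule-rich cells lay between the dividing cells and the granule-low neutrophils. The same order held for S100a6, a calcium-binding protein, at 524 to 865, 4843 to 6317 and 6972 to 10066 CPM.

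**Figure D3:**
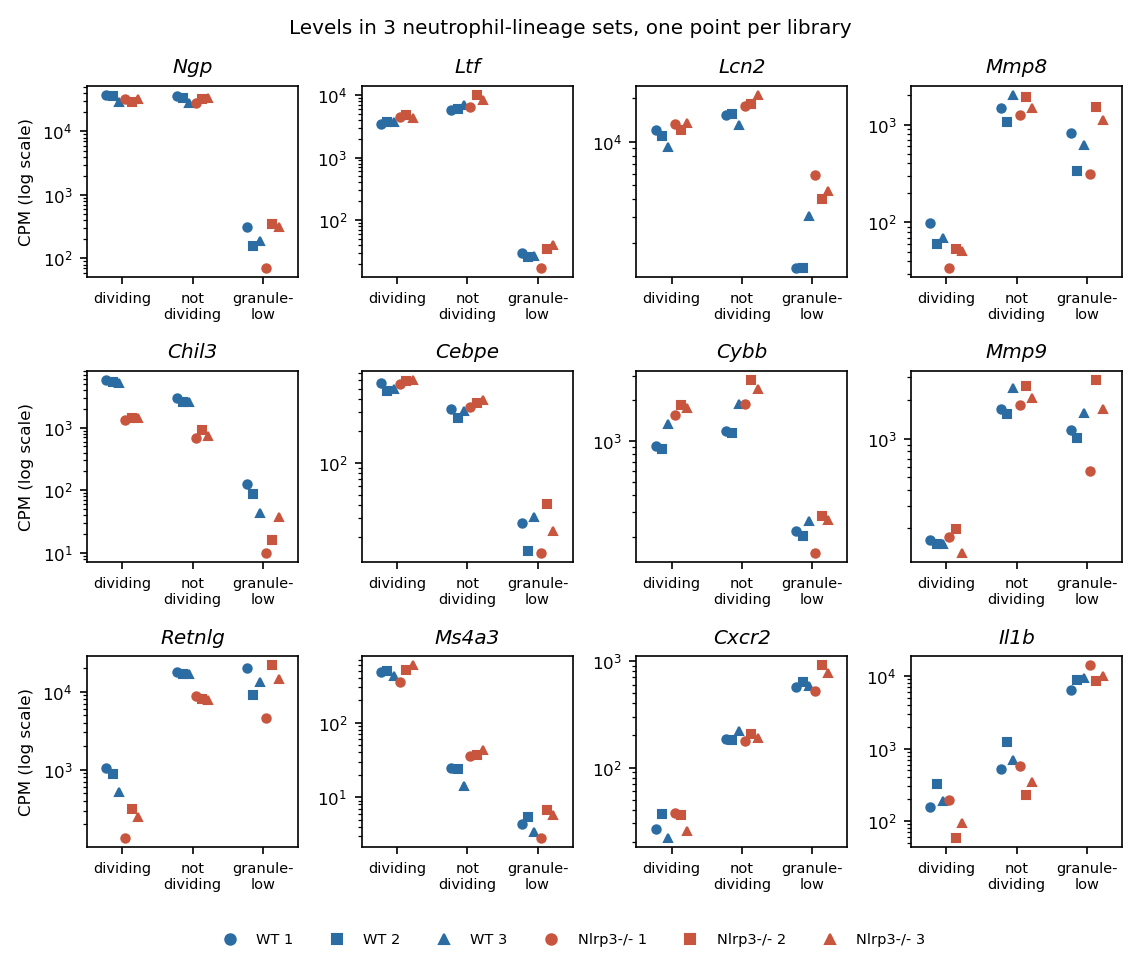
Each panel gives 1 gene's CPM (log y axis) in dividing granule-rich cells, granule-rich cells that were not dividing, and granule-low neutrophils (x axis), with 1 point per library (blue wild-type, red Nlrp3-/-; circle, square and triangle for replicates 1 to 3). Cebpe and Ms4a3 are highest in the dividing cells, Mmp8 lies higher in both non-dividing sets, and Il1b and Cxcr2 are highest in granule-low neutrophils.

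Whether the loss of Nlrp3 changed these cells was then examined between genotypes. Chil3, of the secondary granule list, and Retnlg, of the tertiary granule and secretory list, were lower in Nlrp3-/- mice, and no other gene of these lists passed the test. Nlrp3 itself was at 117, 342 and 163 CPM in wild-type controls and at 0 in the 3 Nlrp3-/- libraries (3507 against 0 UMIs). With a floor of 3 counts over the group, the level was at least 807-fold higher in wild-type controls. In wild-type controls it was lower in these cells than in granule-low neutrophils (998, 2338 and 2086 CPM). The genotype field of replicates 2 and 3 names Nlrp4 and Nlrp5 knockouts, while their titles name Nlrp3, and the Nlrp3 counts go with the titles.

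The genotypes also differed in sex-linked RNA. Xist was at 348, 273 and 251 CPM in the Nlrp3-/- cells and at 0 in the wild-type cells (at least 1721-fold higher), and the Y-linked gene Ddx3y was at 32.7, 43.9 and 47.6 CPM in wild-type controls and at 0 in Nlrp3-/- mice. Effects of sex, of the supplier and of Nlrp3 therefore cannot be told apart in any genotype difference above or below, the share of the lineage included. The median mitochondrial share of the cells was also apart, at 0.236%, 0.306% and 0.268% in wild-type controls and 0.435%, 0.584% and 0.509% in Nlrp3-/- mice. Median depth was 3590.5, 3744.5 and 4172 UMIs and 2954, 3583.5 and 3326 UMIs, also without overlap, and the part of either in the differences was not tested beyond the thinning given with the alternatives.

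Of 9362 genes tested, edgeR's test called 75 (0.801%). In Nlrp3-/- cells 21 were higher (0.224%) and 54 lower (0.577%), and 1380 genes had an unadjusted p below 0.05. Of the 75, 7 lie on chromosome X, 4 on Y and 8 within 20 Mb of Nlrp3 on chromosome 11, which leaves 56 elsewhere (11 higher and 45 lower). The tested genes in each region were not counted, so these numbers cannot be read as many or few. The counts leaned on single libraries: they were 13 and 18 without wild-type replicate 2, 87 and 240 without wild-type replicate 3, 13 and 25 without Nlrp3-/- replicate 1, 12 and 15 without replicate 2, and 9 and 12 without replicate 3. Of the 75 genes, 34 were also called without Nlrp3-/- replicate 1, and 70 were also called with cells under 10% calprotectin UMIs removed.

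Chil3 had the largest difference among granule genes. It was at 2999, 2562 and 2598 CPM in wild-type controls and at 676, 915 and 735 CPM in Nlrp3-/- mice, so the groups were far apart. The difference came to -2.05 ± 0.17 on the log2 scale (adjusted p = 0.000715), and it passed the threshold under each alternative that was run, with values from -2.16 to -1.95. Dividing granule-rich cells showed levels of 5852, 5431 and 5218 CPM and of 1304, 1423 and 1416 CPM, and granule-low neutrophils 126, 86.1 and 43.1 CPM and 9.77, 15.8 and 37.1 CPM. Its free RNA differed the same way, at 832, 309.5 and 579 CPM and at 80.2, 168 and 126 CPM, below the level in the cells. Chil3 has close paralogs, and how their reads were divided is not known.

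Retnlg was the other granule gene that fell. It was at 17896, 16568 and 16583 CPM in wild-type controls and at 8899.9, 7985 and 7799.8 CPM in Nlrp3-/- mice (-1.29 ± 0.15, adjusted p = 0.00383), and it also passed under each alternative. Its free RNA was at 2627, 1347 and 1608 CPM and at 368, 658 and 548 CPM, apart in the same direction and below the cells in every library. In granule-low neutrophils the genotypes overlapped for this gene, at 20244, 9124 and 13256 CPM and at 4620.0, 22086 and 14609.5 CPM. The test of the difference between these 2 genotype effects did not pass (-1.15 ± 0.44, adjusted p = 0.301). Retnlg declined with granule content within the cells. Median granule shares were 7.95%, 8.67% and 7.51% in wild-type controls and 6.92%, 9.06% and 9.75% in Nlrp3-/- mice. The part of granule content in the Retnlg difference was not tested. With cells under 2% granule UMIs removed the difference was -1.21, a step that does not match the genotypes in granule share.

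Most of the granule program showed no difference that passed. Among 12 secondary granule genes Chil3 was the 1 called, and the median was -0.04 (median of all genes 0.03). Lcn2 (0.13 ± 0.17), Mmp8 (-0.21 ± 0.23) and Cd177 (0.26 ± 0.21) all missed the threshold, which does not show that their levels were equal. Cebpe was at 322, 263 and 309 CPM and at 338, 369 and 393 CPM (0.06 ± 0.15, adjusted p = 0.885). None of 7 genes of the primary granule list, 18 transcription factors, 6 NADPH oxidase genes, 12 protein synthesis genes and 16 energy metabolism genes was called. Of 18 division genes that the limits did not use 0 were called, but 15 lay above 0 and 3 below (median 0.50). Over the alternatives that median ran from 0.23 (without Nlrp3-/- replicate 1) to 0.72 (with cells thinned). At most 5 of these genes were called higher and at most 1 lower. S100a8 was at 146887, 133010.4 and 116295 CPM and at 110063, 101140.2 and 104693 CPM; the groups did not overlap, yet the difference missed the threshold (-0.57 ± 0.16, adjusted p = 0.159). It passed in 2 of 15 alternatives, with DESeq2 (0.03) and without wild-type replicate 3 (0.041).

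Of 20 mature effector genes tested between genotypes, 1, Clec4d, was called lower in Nlrp3-/- cells, where 0.577% of all genes were. The log2 fold change was below 0 for 19 of the 20 (median -0.98), without passing the test for the other 18. Clec4d was at 197, 374 and 285 CPM and at 134, 92.7 and 107 CPM (-1.60 ± 0.25, adjusted p = 0.0245). Free RNA held 192, 236 and 197 CPM and 229, 84.3 and 143 CPM of it, and the call was lost without wild-type replicate 2 (adjusted p = 0.069) and without each Nlrp3-/- replicate (0.052, 0.095 and 0.17). Il1b (-1.35 ± 0.39, adjusted p = 0.173) and Cxcl2 (-1.87 ± 0.69, adjusted p = 0.252) overlapped between the genotypes. The number called over the alternatives ran from 0 to 15 and the median from -1.32 to -0.69. Genes of the tissue dissociation response lay the same way, with 0 of 9 called and a median of -0.56, and their part in these values was not tested.

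Of 15 interferon-stimulated genes 1 was called lower, and the fold changes of all 15 lay below 0 (median -0.79). In granule-low neutrophils 13 of 14 also lay below 0 (median -0.71), with 0 called. The difference of the 2 genotype effects had a median of 0.04 over 15 genes, with 1 called lower. In the granule-rich cells, 0 to 9 were called over the alternatives and the median ran from -1.40 to -0.50. There were 5 calls with low-calprotectin cells removed, and without wild-type replicate 1 there were 0, with 13 of 15 below 0. There were also 0 without wild-type replicate 2 or any 1 of the Nlrp3-/- replicates, and 6 without wild-type replicate 3. Oasl2, an antiviral oligoadenylate synthetase-like protein, was at 29.1, 17.5 and 20.5 CPM and at 6.4, 9.32 and 10.8 CPM (-1.55 ± 0.27, adjusted p = 0.0349). Its free RNA was at 36.8, 31.2 and 17.6 CPM and at 19.1, 12.8 and 17.9 CPM, at or above the cells' own level in 5 of the 6 libraries, and the call was lost with doublets removed (0.098) and with cells thinned (0.0503). Without Nlrp3-/- replicate 1 (0.087), without wild-type replicate 1 (0.065) or 2 (0.063), or without Nlrp3-/- replicate 2 or 3 (0.13 each) it was also lost. Irf7, the factor that amplifies interferon responses, was at 57.6, 39.3 and 41.4 CPM and at 20.1, 29.2 and 27.1 CPM, groups apart, with an adjusted p of 0.0593 (-1.08 ± 0.22). It passed in 6 of 15 alternatives, among them without wild-type replicate 3 (0.028) and with low-calprotectin cells removed (0.026). Among 8 inflammasome genes Nlrp3 alone was called, and Il18 missed the threshold (-2.20 ± 0.49, adjusted p = 0.0936). Il18 passed in 5 of 14 alternatives, among them without wild-type replicate 3 (0.046) and with low-calprotectin cells removed (0.035).

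Outside the lists, Calcrl, the receptor for calcitonin gene-related peptide and adrenomedullin, was higher in Nlrp3-/- mice. It was at 10.6, 7.70 and 9.10 CPM in wild-type controls and at 53.8, 43.1 and 41.8 CPM in the knockout (2.08 ± 0.19, adjusted p = 0.00142). Its free RNA was at 13.6, 15.8 and 15.7 CPM and at 25.9, 15.9 and 23.0 CPM, above the cells in the 3 wild-type libraries and below them in the 3 Nlrp3-/- libraries. Cmah, which makes N-glycolylneuraminic acid, was at 14.2, 17.7 and 23.4 CPM and at 73.4, 77.6 and 78.4 CPM (1.83 ± 0.19, adjusted p = 0.00258). Both passed under each alternative. Ssr1, a subunit of the translocon-associated complex (0.89 ± 0.16, adjusted p = 0.0404), and Serpinh1, a collagen chaperone (0.85 ± 0.15, adjusted p = 0.0384), were higher by less. Both calls were lost without any single library other than wild-type replicate 3 (adjusted p up to 0.24 for each). The call of Serpinh1 was lost in 11 of 15 alternatives, and its difference was 0.55 with low-calprotectin cells removed (adjusted p = 0.29). Mesenchymal genes moved with it: they took 0.0394%, 0.0558% and 0.0646% of UMIs in wild-type controls and 0.0721%, 0.0901% and 0.125% in Nlrp3-/- mice, without overlap, and with low-calprotectin cells removed 0.0350%, 0.0560% and 0.0601% and 0.0474%, 0.0886% and 0.116%, with overlap. Col1a1, Col1a2 and Col3a1, which the limits used, are among these mesenchymal genes, so the shares are a description. The part of these genes in the Serpinh1 result was not tested. Tpm3-rs7 was lower (167, 78.3 and 215 CPM against 2.99, 2.76 and 3.45 CPM, -5.86 ± 0.40, adjusted p = 0.0002), and since it is a near copy of Tpm3, how their reads were divided is not known and the level is uncertain. Gla, an X-linked lysosomal galactosidase, had a log2 difference of -2.01 ± 0.29 (adjusted p = 0.0158), lost without Nlrp3-/- replicate 2 (0.076) or 3 (0.13). Higd1a, a mitochondrial protein induced by low oxygen, differed by -1.51 ± 0.21 (0.0135), lost without Nlrp3-/- replicate 3 (0.086). Tgif1, a repressor in TGF-β signalling, differed by -1.56 ± 0.29 (0.0469), lost without wild-type replicate 2 (0.12) or Nlrp3-/- replicates 1 (0.11), 2 (0.15) or 3 (0.18).

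**Figure D4:**
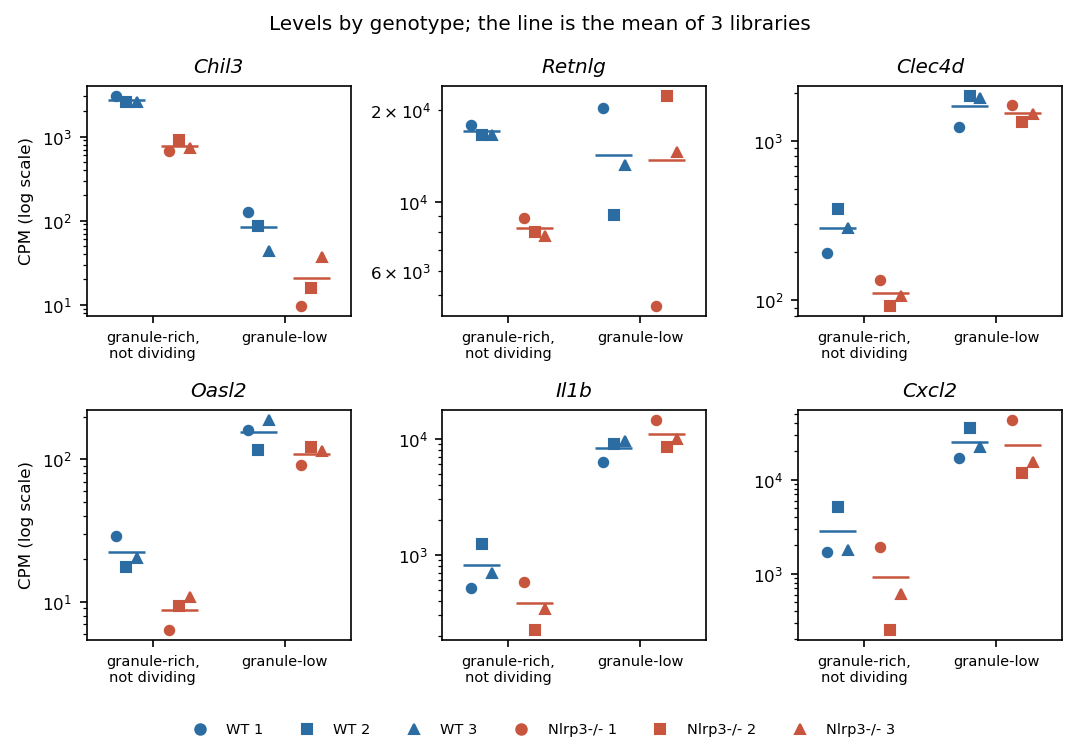
Each panel gives 1 gene's CPM (log y axis) in granule-rich cells that were not dividing and in granule-low neutrophils (x axis), with wild-type libraries in blue and Nlrp3-/- libraries in red (circle, square and triangle for replicates 1 to 3) and the mean of 3 libraries as a line. Chil3, Retnlg, Clec4d and Oasl2 do not overlap between genotypes in the granule-rich cells, while Il1b and Cxcl2 do, and Retnlg and Clec4d overlap in granule-low neutrophils.

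Finally, the genotype effect in the granule-rich cells was compared with that in granule-low neutrophils by an interaction term. Several activation genes were lower in Nlrp3-/- mice in the granule-rich cells relative to the effect in granule-low neutrophils. Of 8781 genes 63 passed (0.717%), 36 higher (0.41%) and 27 lower (0.307%), and with another scaling (RLE size factors) the counts were 38 and 43. They were 10 and 3 without wild-type replicate 1, 31 and 7 without replicate 2, 46 and 73 without replicate 3, 27 and 73 without Nlrp3-/- replicate 1, 14 and 7 without replicate 2, and 9 and 11 without replicate 3. With cells under 10% calprotectin UMIs removed they were 0 and 12, and all 12 were among the 27.

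Of 19 mature effector genes 7 were called lower by that test (Il1b, Cxcl2, Ccl3, Ccl4, Ptgs2, Clec4d and Hcar2) and none higher, against 0.307% of all genes (median of the list -0.89). Genes of the dissociation response lay below 0 in 9 of 9 cases (median -0.78), with 1, Dusp1, called (-1.18 ± 0.22, adjusted p = 0.0274; lost without wild-type replicates 1, 0.14, or 2, 0.15, or Nlrp3-/- replicates 2, 0.083, or 3, 0.068), and their part in the result was not tested. Il1b was at 6333, 8944 and 9492 CPM in wild-type and at 14375, 8556 and 9974 CPM in Nlrp3-/- granule-low neutrophils, where its genotype effect was 0.51 ± 0.34, against -1.35 ± 0.39 in the granule-rich cells. The difference of the 2 effects was -1.83 ± 0.28 (adjusted p = 0.0126), and 0.055 without wild-type replicate 1. That library also decided Cxcl2 (-1.95 ± 0.31, adjusted p = 0.0148, and 0.073 without it), and Ccl4 (-1.93 ± 0.34, adjusted p = 0.0221) was lost without wild-type replicates 1 (0.099) or 2 (0.071), without Nlrp3-/- replicates 2 (0.073) or 3 (0.11), and with low-calprotectin cells removed (0.079). Hcar2, a receptor for hydroxybutyrate, differed by -1.59 ± 0.27 (adjusted p = 0.021), and was lost without wild-type replicate 1 (0.099) or 2 (0.08) or Nlrp3-/- replicate 3 (0.08). The count of 7 became 6 with the low-calprotectin cells removed and 2 without wild-type replicate 1. Free RNA of Cxcl2 was at 1787, 2951 and 2499 CPM and at 3231, 566 and 953 CPM, above the granule-rich cells (1683, 5071 and 1799.9 CPM, and 1931, 255 and 610.3 CPM) in 5 of the 6 libraries, and its part in the result was not tested. In granule-low neutrophils alone 6 of 5679 genes were called between genotypes (0.106%), 2 higher (0.0352%) and 4 lower (0.0704%), and 540 had an unadjusted p below 0.05. Of the genes called higher, Cd36 and Cdh5, which endothelial cells express, are given in the closing section.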

How the data were processed

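Raw, uncalled 10x 3′ v3 matrices of whole UMI counts were deposited by the authors for each library. The labels name Cell Ranger 2.1.1 and mm10, and the file headers Cell Ranger 4. No further normalization had been applied. Gene IDs were looked up in GENCODE M21 (32158 of 32285 matched).

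Counts of each set were summed per library and tested with edgeR 4.0.16 (TMM, filterByExpr, quasi-likelihood test, Benjamini-Hochberg adjustment, threshold 0.05; R 4.3.3), with the library as a block between sets. Printed CPM do not hold the TMM factors (0.894 to 1.12) that the tests used. Between genotypes these were 0.903, 0.894 and 0.965 in the wild-type libraries and 1.09, 1.12 and 1.05 in the Nlrp3-/- libraries. Fitted genotype differences therefore lie below those of the printed CPM, and Lcn2 and Cebpe are apart in printed CPM with small fitted differences. Genes used by the limits were left out before adjustment. In the genotype test of granule-low neutrophils alone, S100a8, S100a9 and Csf3r, also used to choose those cells, stayed in. Shares were compared by two-sided exact permutation tests. DESeq2 1.42.0 was an alternative. Doublets were kept, and removed as an alternative. Those removed were the barcodes with the highest Scrublet scores (scanpy 1.11.5), up to a set share of 0.8% per 1000 barcodes. The script was tested on simulated data. Outside the gene lists, genes named between genotypes were the 10 furthest in each direction among called genes with at least 20 CPM and no overlap, those between sets needed 50 CPM and 1 direction in every library, and for the interaction up to 5 by adjusted p were named. Ackr1 was a member of a list. Not every gene that these rules allow is printed, and 1 listed gene is not reported here. The cells, lists and tests were chosen with earlier results of these data known. Median depth was 2954 to 4172 UMIs per cell.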

Additional observations from a re-analysis of the deposited data

Results flagged for a closer look

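For 5 genes the genotype effect in granule-rich cells differed from that in granule-low neutrophils by the interaction term, and these had the lowest adjusted p. Ccl3, a chemokine, had a difference of -1.97 ± 0.26 (log2, adjusted p = 0.0108). It was at 162, 362 and 375 CPM in wild-type and 298, 25.5 and 60.3 CPM in Nlrp3-/- granule-rich cells, and at 867, 2586 and 3104 CPM and 5357, 677 and 1254 CPM in granule-low neutrophils. Its free RNA was at 134.8, 229 and 317 CPM and at 372, 49.6 and 86.5 CPM, above the granule-rich cells in the 3 Nlrp3-/- libraries and below them in the 3 wild-type libraries. Ptgs2, cyclooxygenase 2, had a difference of -1.85 ± 0.26 (adjusted p = 0.0108). It was at 33.6, 108 and 85.4 CPM and at 77.3, 27.6 and 27.4 CPM in granule-rich cells, and its free RNA at 53.3, 85.2 and 204 CPM and at 151, 62.0 and 87.6 CPM, above the cells in 5 of 6 libraries. The part of free RNA in these results was not tested. Both calls held without each library in turn. Clec4d had a difference of -1.52 ± 0.22 (adjusted p = 0.0124), which was lost without wild-type replicate 1 (0.06).

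Cd36, a fatty acid receptor, had a difference of 4.61 ± 0.55 (adjusted p = 0.0069), and Cdh5, the endothelial cadherin, of 4.0 ± 0.55 (adjusted p = 0.0108). Cd36 was at 6.98, 0 and 0 CPM in Nlrp3-/- granule-low neutrophils, and without Nlrp3-/- replicate 1, which leaves that group at 0, the fitted value was 9.73, which depends on the prior count and is no bound. In granule-rich cells Cdh5 was at 21.2, 2.5 and 3.03 CPM in wild-type controls and at 70.4, 16.9 and 34.7 CPM in Nlrp3-/- mice. Its free RNA was at 55.7, 81.1 and 62.0 CPM and at 116, 45.3 and 98.9 CPM, and that of Cd36 at 44.2, 66.3 and 47.7 CPM and at 112, 34.7 and 70.2 CPM, above the granule-rich cells in 6 of 6 libraries for both genes. In Nlrp3-/- replicate 1 Cdh5 was at 406 CPM in the cells with under 10% calprotectin UMIs and at 17.3 CPM in the rest. With such cells removed from all libraries the differences were 2.90 and 2.53, and neither passed (adjusted p = 0.10 and 0.13).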

How the results depend on the processing

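Between genotypes, the 21 higher and 54 lower genes became 282 and 479 with no filter on low counts, 66 and 211 with DESeq2, 10 and 32 with cells thinned to 1000 UMIs, and 37 and 96 with low-calprotectin cells removed (added after seeing the data). Leaving out 1 library gave 9 to 87 higher and 12 to 240 lower, most without wild-type replicate 3. With the replicate number as a block (replicate block) the counts were 46 and 84, and 71 of the 75 genes were called in both. Replicate numbers did not pair the libraries (correlations of same-numbered deviations 0.201, -0.260 and 0.00431), and Nlrp3-/- replicate 2 correlated best with wild-type replicate 3 (0.348).

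Against dividing cells, thinning gave 1748 higher and 1677 lower, and leaving out 1 library 3214 to 3476 and 3357 to 3705. Against granule-low neutrophils, leaving out 1 library gave 1424 to 1810 higher and 1519 to 1908 lower. For the interaction, the 36 higher became 124 with no filter and 0 with low-calprotectin cells removed, and the 27 lower became 43 with RLE size factors, 156 with no filter and 12 with low-calprotectin cells removed. Leaving out 1 library gave 9 to 46 higher and 3 to 73 lower. Leaving out 1 library, the difference in share of kept barcodes ran from -4.92 to -0.237 percentage points and that in share of the lineage from 7.96 to 13.5; the latter was 4.89 with at least 2000 UMIs per barcode and 17.4 with at least 500. The cause of these changes was not tested.

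Log2 differences that changed sign, none past the threshold, were those between genotypes of Lcn2 (-0.011 without wild-type replicate 3; -0.011 to 0.19 leaving out 1 library, up to 0.23 over all alternatives) and Cebpe (-0.006 without wild-type replicate 2 and -0.018 without Nlrp3-/- replicate 3, -0.018 to 0.13 leaving out 1 library, up to 0.15 over all alternatives), and that of Retnlg against granule-low neutrophils (-0.11 without wild-type replicate 2 and -0.02 without Nlrp3-/- replicate 1, -0.11 to 0.41 leaving out 1 library, up to 0.46 over all alternatives). With 3 libraries per group, no share can reach an exact p below 0.1.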

Other observations

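Cmc2, a mitochondrial protein needed for cytochrome c oxidase assembly, was lower in Nlrp3-/- granule-rich cells (61.2, 56.8 and 57.8 CPM against 14.9, 6.56 and 7.76 CPM; log2 difference -2.91 ± 0.28, edgeR adjusted p = 0.00157), and the call held under each alternative. In granule-low neutrophils it was at 95.6, 88.6 and 87.1 CPM and at 4.19, 4.53 and 8.57 CPM. In dividing granule-rich cells it was at 108, 102 and 108 CPM and at 82.1, 90.0 and 84.6 CPM, where no genotype test was run.

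Ackr1, an atypical chemokine receptor, was higher in Nlrp3-/- granule-rich cells but rested on few counts (0.494, 0.624 and 0.357 CPM against 11.5, 5.0 and 6.03 CPM; 3.59 ± 0.49, adjusted p = 0.0129). Without Nlrp3-/- replicate 3 the adjusted p was 0.072, and with low-calprotectin cells removed, doublets removed or cells thinned the gene was not tested, being below the filter. Its free RNA was at 5.47, 9.37 and 5.99 CPM and at 9.09, 14.8 and 10.8 CPM, above the cells' own level in 5 of 6 libraries.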
